A study of Oryctolagus cuniculus with 8 samples.

Results

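RNA levels were compared between late and early passages of rabbit induced pluripotent stem (iPS) cells, within each of 2 lines. The comparison holds 4 of the 8 arrays of the series, chosen by passage number alone. The late side was the liver line iPS-L1 at passage 23 and the stomach line iPS-S1 at passage 22. The early side was the same liver line at passage 7 and the same stomach line at passage 6. The other 4 arrays were the embryonic stem (ES) cell lines rdES4 and rdES2-1, liver cells and stomach cells. Per the labels, every sample came from the Dutch rabbit strain, iPS and ES cells shared stem cell medium, and liver and stomach cells were grown in a somatic cell medium. Each origin is represented by 1 line and each line and passage by 1 array. The labels used here do not give the reprogramming factors or vectors, and nothing in them says that early and late arrays stand for more than 1 culture each. A p-value here reflects how far these 8 samples scatter, and technical scatter may be part of it.

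Reprogramming turns a somatic cell into an iPS cell by forcing expression of a small set of transcription factors until the cell's own pluripotency network takes over. In other species, early passages can still hold transcripts of the cell of origin or of incomplete reprogramming, and continued passaging also selects for cells that grow well in culture. POU5F1 is a core factor of the pluripotent state, and PODXL encodes a heavily glycosylated surface protein that many antibodies to pluripotent cells bind.

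Levels are log2 signals relative to the 75th percentile of each array, so a level of 0 is that percentile. On this scale the lowest probe called well above background lay between -5.40 and -5.36 on the iPS arrays. On these 4 arrays the 75th percentile was a signal of 296.9 to 341.5, and of 43603 probes 62.36% to 63.96% exceeded background clearly. The liver line's early and late arrays sat beside each other on one slide and those of the stomach line on another, with the late array 1 position after the early one on both. Line and slide thus coincide, each line's own difference is a within-slide value, and the part of array position was not tested. RNA of whole cultures was measured, so fewer cells of a type and less RNA per cell cannot be told apart.

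POU5F1 was well above background on all 4 iPS arrays. Its level was 7.62 in the early liver line and 7.57 in the early stomach line, against 7.08 and 7.12 at late passage. Both late arrays lay below both early ones, and the ES lines were at 7.14 and 6.69. The difference of -0.49 ± 0.19 (SE) did not pass the test, with an adjusted p of 0.565. PODXL stood at 7.29 and 7.30 early and at 7.32 and 7.32 late, a difference smaller than its standard error. Liver and stomach cells had POU5F1 at -3.63 and -3.46. Both markers were thus within 1 log2 unit of each ES line on every iPS array, at either passage. KLF5, a transcription factor active in ES cells and gut epithelium, was the other measured member of the pluripotency list. It was at -3.58 and -4.73 early and at -4.85 and -5.16 late, with an adjusted p of 0.522. NANOG, SOX2 and the other 12 symbols of that list had no named probe and are not analysed here.

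Reference genes differed little. PPIA, a peptidyl-prolyl isomerase, stood at 7.05 and 7.07 early and 7.07 and 7.11 late. The late minus early difference was 0.03 for PPIA, 0.10 for ACTB (cytoskeletal actin), 0.17 for GAPDH (a glycolytic enzyme) and -0.17 for HPRT1 (purine salvage). Their standard errors were 0.13 to 0.16 and their adjusted p-values 0.846 to 0.983.

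No probe passed the test between late and early passage. Of 28848 tested probes, 0 (0%) had an adjusted p under 0.05 in limma with line as a block, and the smallest adjusted p was 0.100. At an unadjusted p under 0.05 there were 2535 probes (8.79%), of which 1010 were higher late (3.50%) and 1525 lower late (5.29%). Without the replicate block for line, 8 probes (0.0277%) passed, 2 higher and 6 lower, and the smallest adjusted p was 0.0346. The 2 higher ones were not well above background on either early array, and the 6 lower ones on neither late array. Each of these differences thus has a side at background. Among those 8 were a probe of CAV1 and a probe of DCN, both described further on. The test rested on 3 residual degrees of freedom, and the median standard error of a difference was 0.19. Every gene below is therefore given by its values.

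The lines nevertheless shared part of their difference. The liver line had 1849 probes at least 2-fold apart between passages, 790 higher and 1059 lower late. The stomach line had 1761, of which 779 were higher and 982 lower late. Of the liver line's probes 34.2% were also at least 2-fold apart in the stomach line in the same direction, and of the stomach line's probes 35.9% were so in the liver line. In both lines 281 probes were at least 2-fold higher late (0.974% of those tested) and 351 at least 2-fold lower (1.22%), while 92 were 2-fold apart in opposite directions. The split between higher and lower depended on scaling and on background correction, with 295 higher and 282 lower after quantile normalization and 55 higher and 42 lower after normexp. Across probes, the late minus early difference correlated between lines with a Pearson's r of 0.455 and a Spearman's rho of 0.422, where probes are not independent replicates and each line's values share a slide. Over all tested probes, 65.2% went the same way in both lines. Both late arrays lay above both early arrays for 5704 probes (19.8%) and below for 7321 (25.4%).

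**Figure D1:**
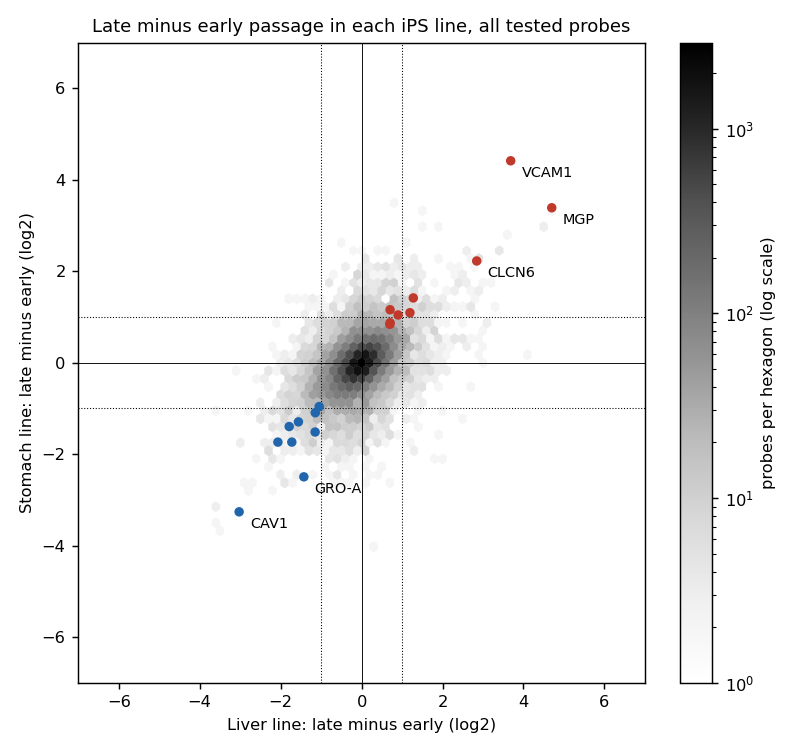
Late minus early difference (log2) of every tested probe in the liver line (x axis) and the stomach line (y axis), with grey hexagons shaded by the number of probes on a log scale. Dotted lines mark 2-fold, and red and blue points mark the 9 named genes with the largest statistic higher and the 9 lower at late passage; CAV1 lies in the lower left corner and MGP and VCAM1 in the upper right, past 2-fold in both lines.

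The 2 iPS lines lay closer to each other at late passage. The standard deviation of the difference between lines across probes was 0.51 early and 0.42 late. The number of probes at least 2-fold apart between lines was 1561 early and 1005 late. The direction was the same with quantile normalization, without scaling, after normexp and under each filter on dim probes. With 1 array for each line and passage, this carries no test.

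Distance from ES cells was lower at late passage in the liver line and nearly level in the stomach line. Against the mean of the ES lines, the liver line had 2127 probes at least 2-fold apart early and 947 late. The stomach line had 1591 early and 1458 late. The ES lines themselves were at least 2-fold apart on 1291 probes. That count sets 1 array against another, so it compares with the counts against each ES line that follow and not with those against their mean. The choice of ES line mattered for the stomach line. Against rdES2-1 its count went from 1968 early to 1435 late, and against rdES4 from 1924 early to 2256 late. The liver line's count was lower late against both, from 2152 to 1592 for rdES4, which shared its slide, and from 2651 to 1123 for rdES2-1, which did not. Correlation with the mean of the somatic cells was 0.809 early and 0.813 late for the liver line and 0.811 and 0.818 for the stomach line.

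**Figure D2:**
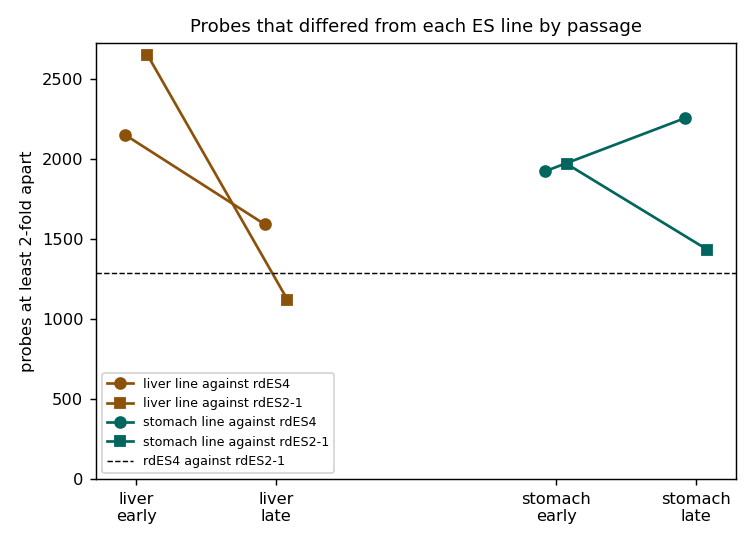
Number of tested probes at least 2-fold apart between each iPS array and each ES line (y axis) at early and late passage (x axis), with circles for rdES4, squares for rdES2-1 and a dashed line at the 1291 probes that separated the ES lines. The count was lower late in 3 of the 4 line pairs, and for the stomach line against rdES4 it was higher.

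Many of the probes 2-fold apart in both lines were dim on one side. Of the 281 that were higher late, 105 were not well above background on either early array, and 70 were well above background on all 8 arrays. Their median level was -4.98 early and -3.17 late, against -3.41 in ES cells and -3.68 in somatic cells. Of the 351 that were lower late, 152 were not well above background on either late array, and 97 were above it on all 8. Their median was -3.18 early and -5.15 late, against -4.50 in ES cells and -4.33 in somatic cells. In both sets the medians of ES and of somatic cells thus lay nearer to the late than to the early median. ES and somatic levels entered the choice of these probes through the filter on dim probes alone.

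Gene symbols were available for 1333 tested probes of 511 genes, so most of these probes have no name here. By the brightest probe of each gene, 12 named genes were at least 2-fold higher late in both lines and 16 at least 2-fold lower. Both late arrays lay above both early ones for 91 of the 511 and below for 152. The median difference was -0.07 over the named genes and -0.03 over all tested probes.

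CAV1 had the largest statistic among named genes. It encodes caveolin-1, the coat protein of the membrane pits called caveolae, and is abundant in fibroblasts, endothelium and smooth muscle. Its brightest probe stood at 0.36 in the liver line and -0.31 in the stomach line early, and at -2.67 and -3.57 late. Both late arrays were far below both early ones, and the late minus early difference was -3.14 ± 0.24 (SE), a fold of 8.84, with an adjusted p of 0.121. ES lines had CAV1 at -3.83 and -4.01, and liver and stomach cells at 4.76 and 4.13. Late iPS cells thus lay nearer to ES cells, and early iPS cells lay between ES and somatic cells. All 7 CAV1 probes were lower late in both lines, by 2.78 to 3.43 on the log2 scale, and on 5 of them neither late array was well above background. One of those dim probes, at -3.98 and -4.52 early, passed the test without the replicate block, at an adjusted p of 0.0379 and at least 2.21-fold lower late.

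SLC3A1, the heavy subunit of the cystine and dibasic amino acid transporter of kidney and gut, stood at -3.06 and -2.52 early and at -4.78 and -4.25 late. The difference was -1.72 in the liver line and -1.74 in the stomach line, with an adjusted p of 0.267, and ES lines were at -4.64 and -4.67. The 3 SLC3A1 probes agreed in direction but not in size, and 1 of them differed by -0.27 in the liver line and by -2.91 in the stomach line, where it was dim late. KCND2, a voltage-gated potassium channel of the A type, was at -0.84 and -2.48 early and at -2.63 and -3.88 late. Within each line KCND2 was at least 2-fold lower late, with an adjusted p of 0.253, and ES lines were at -2.58 and -3.10. ATP1B1 is the beta subunit of the sodium pump. Its level was 3.80 and 3.12 early and 2.49 and 2.40 late, a difference of -1.02 ± 0.22 (SE, adjusted p 0.407).

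SGCA encodes alpha-sarcoglycan, a muscle protein of the dystrophin complex, and stood at -0.86 and -1.81 early and -2.93 and -3.55 late. Its late levels were below those of liver and stomach cells (0.48 and -0.43) and near those of ES cells (-2.52 and -3.08). The adjusted p was 0.369. GRO-A, a neutrophil-attracting chemokine, was at -4.11 and -3.80 early and was not well above background on either late array, which makes it at least 2.71-fold lower, with an adjusted p of 0.312. It stood at 5.78 and 5.95 in somatic cells and at -5.56 and -6.06 in the ES lines. CD1D, which presents lipid antigens to T cells, stood at -1.60 and -2.26 early and -2.75 and -3.77 late (adjusted p 0.286). CAMP, an antimicrobial peptide precursor, went from -3.99 and -3.78 to -5.04 and -4.74, with 1 of the late arrays well above background. LGALS4, a galectin of gut epithelium, went from -3.65 and -3.85 to -4.79 and -4.94. For AHR, the receptor for dioxin-like ligands, the probe was not well above background on any iPS array, so its difference of -1.43 has no interpretable fold.

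Further named genes reached 2-fold lower in both lines with a larger standard error, and are given here because of the size of their difference. RLN1, a relaxin, was at -0.08 and -1.84 early and -2.56 and -3.83 late, with 3 of 3 probes lower. HP, which encodes the haemoglobin-binding plasma protein haptoglobin, was at 0.17 and 0.50 early and -1.65 and -1.93 late. CRYAB, a small heat shock protein, was at 1.38 and 0.37 early and -0.81 and -0.73 late, near the ES levels of -0.76 and -1.97. EMP1, an epithelial membrane protein, was at 3.14 and 2.30 early and 0.15 and 0.60 late, although its second probe did not go the same way in both lines. The remaining members of this set were PTHLH (parathyroid hormone-related protein), INMT (an N-methyltransferase), CD247 (the zeta chain of the T cell receptor) and NXPE1. The differences of PTHLH and INMT were -1.60 and -1.13. CD247 and NXPE1 were not well above background on either late array and were at least 2.07-fold and 1.44-fold lower. Adjusted p-values of these 8 genes lay between 0.430 and 0.921. The standard error behind them draws on all 8 arrays, with liver and stomach cells pooled as a group. Those cells lay far apart for HP (-2.53 in liver and 2.16 in stomach cells), INMT (-0.98 and -6.22) and RLN1 (-1.17 and -4.77). For these genes the p-value thus also reflects a difference between somatic cells.

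MGP and VCAM1 were higher late in both lines from early levels at or near background. MGP encodes matrix Gla protein, an inhibitor of calcification made by cartilage and vascular smooth muscle. Its brightest probe was at -6.01 in the early liver line and -4.37 in the early stomach line, and at -1.31 and -0.98 late. Late arrays were far above early ones in both lines, and the difference was 4.04 ± 0.77 (SE), with 1 of 2 early arrays well above background and an adjusted p of 0.369. ES lines stood at -1.91 and -2.95, and liver and stomach cells at 7.15 and 5.18. All 9 MGP probes were higher late in both lines, by 1.63 to 4.04. Late iPS levels of MGP lay above both ES lines and far below the somatic cells.

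VCAM1, an adhesion molecule that binds leukocyte integrins, was not well above background on either early array and stood at -3.98 and -3.20 late. The late level was at least 3.42-fold above the early one, with an adjusted p of 0.216. On the brightest VCAM1 probe the ES lines had no measured level either (-7.62 and -7.79). By that probe, late iPS cells lay away from ES cells. Only 2 of the 5 tested probes were higher late in both lines. The other 3 were well above background on none of the early arrays and on at most 1 late array, with differences of 0.18 to 0.74. On 1 of these 3, rdES2-1 stood at -3.81, against -6.70 and -7.68 in the late liver and stomach lines. Liver and stomach cells had VCAM1 at 4.82 and 3.39.

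ITGB3 is the integrin beta 3 subunit, which pairs with the alpha V and alpha IIb chains. It stood at -1.52 and -1.11 early and at -0.24 and 0.30 late, above background on all 4 arrays. The late arrays were above both early arrays and above the ES lines (-0.93 and -0.80), with a difference of 1.35 ± 0.23 (SE) and an adjusted p of 0.333. Of its 5 probes 4 were at least 2-fold higher in both lines, by 1.35 to 2.26, and the fifth was not above background on any iPS array. TFPI, an inhibitor of the tissue factor pathway of coagulation, stood at -4.05 and -3.13 early and -2.35 and -1.18 late, and its 4 probes agreed. For TFPI too the late levels were above those of the ES lines (-4.00 and -3.04).

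**Figure D3:**
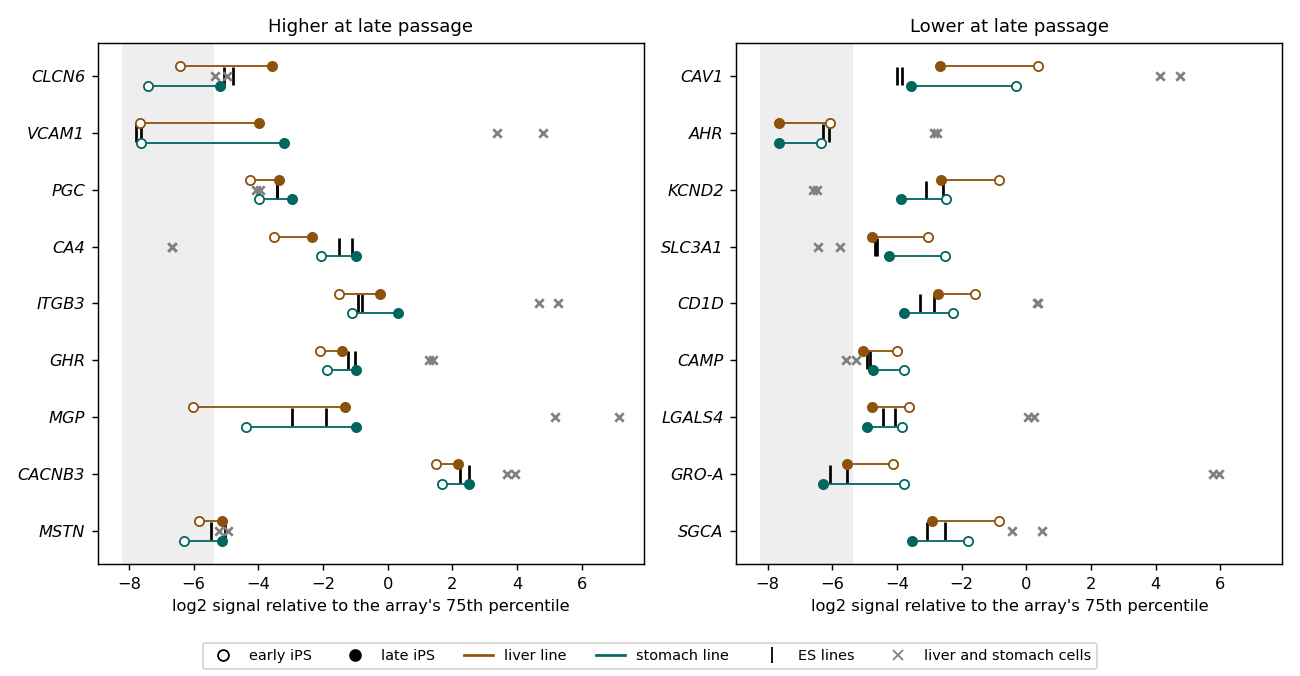
Level (log2 signal relative to the 75th percentile of the array, x axis) of the 9 named genes with the largest statistic higher late (left) and the 9 lower late (right), with open circles for early and filled circles for late iPS arrays, joined within a line. Vertical bars are the ES lines, crosses the liver and stomach cells, and the shaded range marks levels below about the lowest probe well above background on iPS arrays; CAV1 lies near 0 early and near the ES lines late, whereas both late VCAM1 points lie far from the ES bars.

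KCNJ8, the pore subunit of an ATP-sensitive potassium channel, was not well above background on either early array with any of its 5 probes, and its brightest probe stood at -3.48 and -3.40 late. It was at least 3.79-fold higher late, and the ES lines differed from each other, at -4.46 and -1.93. CLCN6, a chloride and proton exchanger of late endosomes, was also dim on both early arrays, at -3.59 and -5.18 late, and was at least 1.97-fold higher, with an adjusted p of 0.146. PAX6, a transcription factor of the eye and neural tube, was at -5.98 and -3.29 early and -1.49 and -1.79 late, against -0.97 and 0.06 in the ES lines. FGFR2, a fibroblast growth factor receptor, was at -5.50 and -3.97 early and -3.56 and -2.80 late, against -3.59 and -3.00. Late PAX6 was nearer to both ES lines than early PAX6 in each line. For FGFR2 this held in the liver line, while in the stomach line the late level was nearer to rdES2-1 and the early level nearer to rdES4. The adjusted p was 0.528 for PAX6 and 0.524 for FGFR2.

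GHR, the growth hormone receptor, was at -2.11 and -1.86 early and -1.40 and -0.99 late, with the ES lines at -1.22 and -1.01 and 4 of 4 probes higher. CACNB3, a beta subunit of voltage-gated calcium channels, was at 1.48 and 1.69 early and 2.18 and 2.53 late, with the ES lines at 2.24 and 2.51. PGC, the precursor of a gastric protease, was at -4.27 and -3.99 early and -3.37 and -2.94 late, and both ES lines were at -3.41. For these 3 genes the late arrays lay above both early arrays and around the ES levels, with adjusted p-values of 0.352, 0.408 and 0.233. CA4, a membrane-bound carbonic anhydrase, was higher within each line, by 1.20 and 1.09, but its late liver array at -2.33 lay below the early stomach array at -2.07. MSTN, the growth factor myostatin, was not well above background on either early array and was at least 1.18-fold higher late. IL15, a cytokine for lymphocytes, was at -3.70 and -3.66 early and -2.59 and -2.40 late, with 7 of 7 probes higher in both lines. IL15, RFT-II and ADRA1B, an adrenergic receptor not above background on any iPS array, complete the 12 genes.

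DCN, the matrix proteoglycan decorin and a fibroblast marker, had probes that disagreed. Of its 6 probes, 5 were not well above background on any iPS array, with liver and stomach cells at 4.44 and 5.42 on the brightest. The sixth stood at -7.67 and -7.64 early and at -3.59 and -3.63 late, at least 3.37-fold higher. That probe had an adjusted p of 0.121, and of 0.0386 without the replicate block. PTGER2, a prostaglandin receptor, likewise had a probe with a difference of -0.12 and a second that was dim on both early arrays and at least 2.76-fold higher late. The probes of MMP3, a matrix metalloproteinase, disagreed in the other direction. Its brightest probe differed by 0.004. The second was well above background on every iPS array, at 0.74 and 0.11 early and -3.86 and -3.75 late, with an adjusted p of 0.655. On this probe liver cells were at -0.26 and stomach cells at -6.95, so that p-value also reflects a difference between somatic cells.

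**Figure D4:**
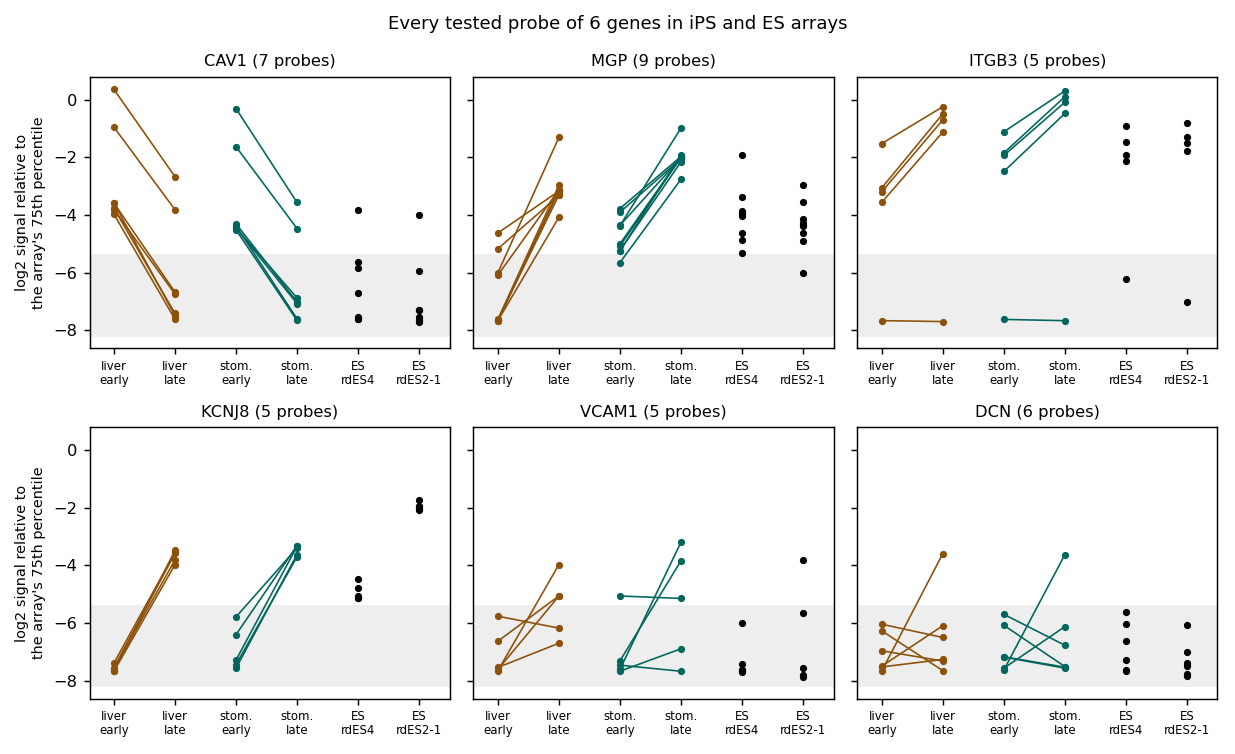
Level (log2 signal relative to the 75th percentile of the array, y axis) of every tested probe of CAV1, MGP, ITGB3, KCNJ8, VCAM1 and DCN in the early and late arrays of each iPS line, joined by lines, and in the 2 ES lines, with shading as in the plot of levels by gene. All probes of CAV1 are lower late in both lines and all probes of MGP and KCNJ8 higher, whereas 2 of 5 are higher in both for VCAM1 and 1 of 6 for DCN.

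Gene lists for cell types and pathways held 150 tested symbols in 28 lists, and no member of any list passed the test. Both late arrays lay above both early ones for 19.8% of all tested probes and below them for 25.4%. By the brightest probe of each gene, as used in the lists, this held for 91 and 152 of the 511 named genes. The following counts are of the same kind and are set against these. The fibroblast and mesenchyme list held 4 tested genes that went in different directions. CAV1 was lower and MGP higher, MMP2 (a matrix metalloproteinase) was level at 0.88 and 0.83 early and 0.84 and 0.56 late, and DCN was at background by its brightest probe. In the smooth muscle list 2 of 4 genes were lower without overlap, TPM2 (a tropomyosin, above background on 1 iPS array) and CALD1 (caldesmon), the latter at 5.25 and 5.04 early and 4.44 and 4.47 late. ACTA2, its defining actin, was at -0.07 and 0.79 early and 0.28 and 0.76 late, so it overlapped between passages, as did TPM1, another tropomyosin, with a difference of -0.18. The median of this list was -0.44, with a smallest adjusted p of 0.632.

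Striated muscle genes were lower without overlap in 5 of 11 cases and higher in 1, with a median of -0.16. TNNC2, a fast-muscle troponin, was at 3.16 and 3.97 early, 2.45 and 2.34 late and 2.70 and 2.51 in the ES lines. CKMT2, a mitochondrial creatine kinase, was at 0.32 and 0.14 early and 0.00 and -0.34 late. CKM, the muscle creatine kinase, went the other way, with a difference of 1.27 over both lines and an adjusted p of 0.553. CASQ1, a calcium-binding protein of the sarcoplasmic reticulum, was lower by 2.08 in the liver line and 0.74 in the stomach line by its brightest probe. All 5 CASQ1 probes were lower late in both lines, and the other 4 were at least 2-fold lower in both.

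Of the solute carriers 7 of 15 lay below early without overlap and 1 above, with a median of -0.26. No list was tested as a set. After SLC3A1, the largest statistics were those of SLC5A1 (a sodium-glucose transporter), SLC7A5 and SLC3A2 (the chains of a large neutral amino acid transporter), with differences of -0.37, -0.26 and -0.24. Of the potassium channels 4 of 9 lay above and 1 below, with a median of 0.24, although KCND2, with the largest statistic of that list, was lower late. The voltage-gated channel KCNA5 was higher by 0.27, and KCNE1, a channel accessory subunit, lower by 0.38 on the log2 scale. Calcium channel subunits had 3 of 8 above and 1 below, led by CACNB3 and by CACNA2D1 at a difference of 0.71. The next by statistic, CACNA1B and CACNA1C, went the other way, with differences of -0.16 and -1.02.

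Inflammation genes were split, with 2 of 12 above and 5 below and a median of -0.01. Apart from VCAM1 and GRO-A, IFNG (interferon gamma) was at -3.79 and -3.67 early and -4.49 and -4.80 late, and TLR2, a receptor for bacterial lipoproteins, differed by 0.25. Hepatocyte genes went both ways, with TF (transferrin) at 0.29 and 0.40 early and 1.00 and 1.24 late, and HP and RBP4 (retinol-binding protein) lower by 2.13 and 0.86 on the log2 scale. TF in the ES lines was at 2.09 and 1.57. Among gastric genes, PGC was higher, while the acid pump subunit ATP4A and the protease CTSE overlapped between passages.

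In glycolysis, LDHA (lactate dehydrogenase) was at 5.92 and 5.79 early and 5.62 and 5.39 late, and GPI (glucose phosphate isomerase) was at 4.36 and 4.54 early and 4.66 and 4.81 late. Of the 13 translation factors 4 lay above and 2 below, with a median of 0.03. EIF2AK2, the kinase activated by double-stranded RNA, was in the stomach line at -4.76 early and -2.01 late, and went from -4.53 to -4.06 in the liver line. EIF2B2, a subunit of the exchange factor for eIF2, was lower by 0.42 on the log2 scale. PPP1R2, a protein phosphatase inhibitor, was lower by 0.41 and BCL2L1, an inhibitor of apoptosis, by 0.47. PTGS1, a prostaglandin-forming cyclooxygenase, was at -0.08 and -0.84 early and -1.48 and -1.42 late.

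**Figure D5:**
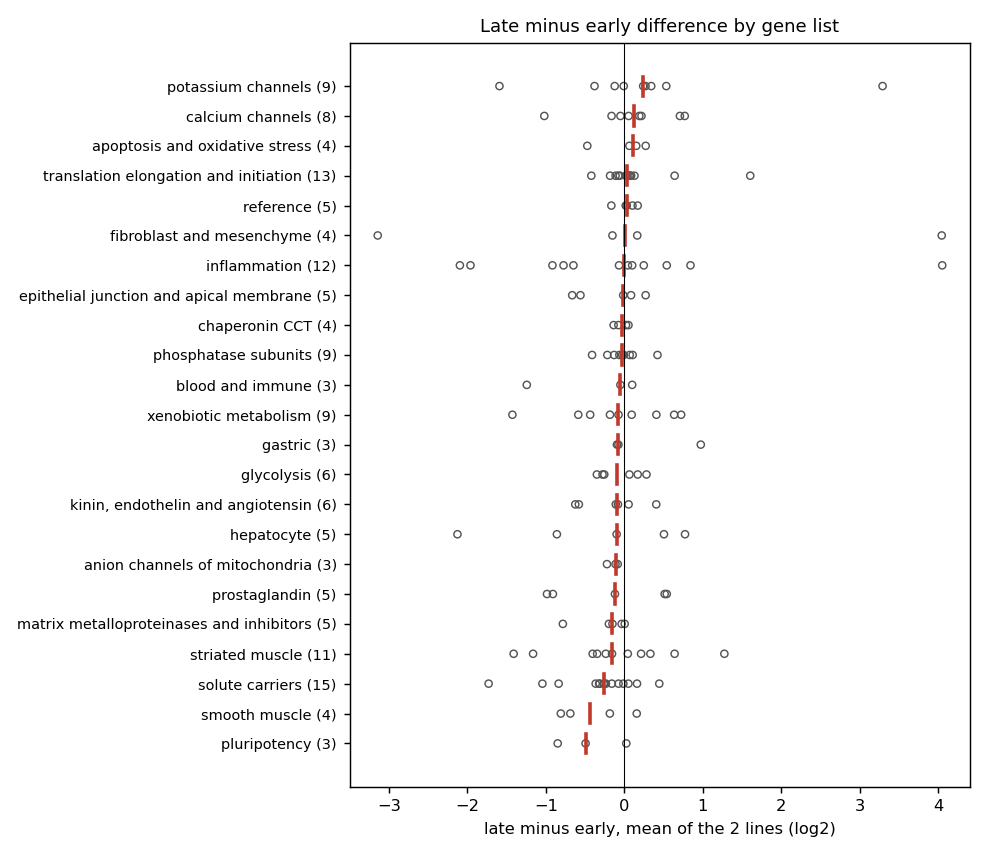
Late minus early difference (log2, mean of both lines, x axis) of each tested gene in the lists with at least 3 tested members (y axis, number tested in brackets), with open circles for genes and red bars for the median of the list. Medians lie between -0.49 for pluripotency and 0.24 for potassium channels, and single genes such as CAV1, MGP, VCAM1 and KCNJ8 lie far outside the bulk of their lists.

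The passage difference was next compared between the lines. No probe passed the test of that interaction (0% of 28848), with a smallest adjusted p of 0.586 and 725 probes (2.51%) at an unadjusted p under 0.05. The spread here came from the ES and somatic pairs, since each iPS array stood alone, so it is assumed that an iPS array varies like those. The 5 named genes with the largest gap between lines had an adjusted p of 1.00. KCNK1, a background potassium channel, was at -7.51 early and -3.80 late in the liver line and at -3.66 early and -6.07 late in the stomach line. PLN (phospholamban, an inhibitor of the calcium pump) was at -4.00 and -5.77 in the liver line and at -6.37 and -3.32 in the stomach line. Of its 6 probes, 2 others were dim on both early arrays and higher late in both lines, at -4.64 and -3.13 in the late liver line, so the probes of PLN disagreed in that line. The brightest probes of KCNK1 and PLN were each well above background on 1 early and 1 late array, in opposite lines.

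RFT-II was at -5.70 early and -4.36 late in the liver line and at -5.92 early and -0.59 late in the stomach line, and 3 of 3 probes were higher late in both. By the mean of the lines RFT-II was at least 7.39-fold higher late, from a difference of 1.35 in the liver line and 5.33 in the stomach line. The bound thus does not hold for the liver line by itself. ES lines were at -6.06 and -5.86. S100B, a calcium-binding protein of glia and fat, was at -3.26 in the early stomach line and was not well above background on the other 3 iPS arrays. A second S100B probe ran the other way, dim on both early arrays and on the late liver array and at -4.77 in the late stomach line. Over the 5 tested S100B probes the median difference was -0.65, and only the first was lower late in both lines. The brightest probe of IL1A, the cytokine interleukin 1 alpha, stood at -3.63 in the early stomach line. It was not well above background on the other 3 iPS arrays. Of the 4 tested IL1A probes, only this 1 was lower late in both lines. The gap between lines rested on 1 stomach array for each of these 3 genes.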

How the data were processed

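Per the file headers, the deposited intensities came from 1-colour Agilent arrays read with Feature Extraction 10.5.1.1, with background subtracted and no scaling between arrays. The authors' deposited value table held log2 values. These matched log2 intensity over the 75th percentile of each array after subtraction of every probe's median (lowest correlation on an array 0.99995), and served as an alternative here.

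The processed signal was taken as log2 minus the 75th percentile of each array. Control spots and 19 probes with marked spots were left out. Probes well above background on both arrays of at least 1 of 4 groups (early iPS, late iPS, ES, somatic) were tested, 28848 in all. limma 3.58.1 in R 4.3.3 fitted all 8 arrays, with ES and somatic groups and line as a block for the iPS arrays, two-sided, with Benjamini-Hochberg adjustment over all tested probes and a threshold of 0.05. The pairing comes from the line names in the labels, which are the same at both passages. Differences between lines at early and at late passage correlated at 0.224 across probes. Since line and slide coincide, this value cannot bear out the pairing. The script was tested on simulated data.

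The files pair probes with accessions. Symbols came from a RefSeq table (assembly mOryCun1.1), used for names only, and were found for 1933 probes of 680 genes. The brightest tested probe stood for a gene. Named were the 10 genes with the largest statistic in each direction among those going the same way in both lines (none passed the threshold, and 1 is not reported here), up to 4 members of each gene list, the 5 with the largest gap between lines and a few marker and reference genes. Others were named after their values were seen: the genes at least 2-fold apart in both lines, the probe of DCN that stood apart, PTGER2 and MMP3. The comparison and the 30 lists were chosen with earlier results of these data known.

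Where both arrays of a group left a gene dim, its fold is a bound, written "at least". It sets the bright group's mean against the dim group's, in which each array counts at its own signal or at its lowest signal called well above background, whichever is higher. The number of arrays limits the precision. Alternatives were the block, the arrays that share the spread, slide, background correction (normexp on median signals, offset 50), scaling, the authors' table, filters on dim probes, an intensity trend, the probe per gene and leaving out each array.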

Additional observations from a re-analysis of the deposited data

How the results depend on the processing

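The count of probes past the threshold was 0 with line as a block and ranged from 0 to 0 when each array was left out. It was 8 with no replicate block, 4 after normexp (all higher late) and 0 in the other 10 alternatives. The smallest adjusted p lay between 0.0346 and 0.497 over all of these. The count for the difference between lines was 0 in each alternative. The counts at least 2-fold higher and lower late in both lines were 55 and 42 after normexp, 295 and 282 after quantile normalization, which turns the excess of lower probes, 437 and 594 with no filter on dim probes, and 137 and 169 over probes well above background on all 4 iPS arrays, against 281 and 351. The correlation between lines was 0.187 with no filter. After normexp the SD between lines was 0.27 early and 0.21 late, against 0.51 and 0.42. The causes were not tested, except that normexp with an offset compresses dim values and a filter alters which probes are counted.

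For 74 genes, 1513 of 1525 pairs of gene and alternative kept their direction and their side of the threshold. Reversed were PODXL after normexp (-0.039), PTGER2 by the mean of all probes (1.79), and 5 genes when an iPS array was left out, a fit that gives the other line's own value: ACTA2 (from -0.037 to 0.35), DCN (-1.07 to 1.40), KCNK1 (-2.41 to 3.71), TPM1 (-0.41 to 0.041) and PLN (-1.77 to 3.05). Genes dim on one side, such as VCAM1, MGP and KCNJ8, are limited by signal over background.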

Other observations

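Most tested probes have no gene name here, and a few of them went the same way on every probe of a transcript. Of 4069 accessions with at least 3 tested probes, 24 had every probe at least 2-fold higher late in both lines and 18 had every probe at least 2-fold lower. Named genes among them were KCNJ8, MGP and TFPI on the higher side and CAV1, KCND2 and RLN1 on the lower side. The transcript ENSOCUT00000001920 had 5 of 5 probes higher late, by 2.48 to 2.65, with medians over probes of -1.21 and -0.38 early and 1.61 and 1.88 late. The ES lines stood at 1.99 and 2.50, and liver and stomach cells at -6.61 and -6.63. For ENSOCUT00000006791, 5 of 5 probes were lower late, by 1.20 to 1.47 on the log2 scale, with medians of -0.99 and -1.93 early and -2.29 and -3.02 late. ES lines were at -1.79 and -1.94, above both late arrays. These transcripts were chosen after their values were seen, and their smallest adjusted p-values were 0.144 and 0.161.

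By the moderated statistic of limma, the leading unnamed probes were those of DN885999 and ENSOCUT00000003616. DN885999 was not well above background on either early array and stood at -4.17 and -4.11 late, at least 2.33-fold higher, with an adjusted p of 0.121. ES lines were at -4.01 and -4.06, and liver and stomach cells at 1.48 and 1.54. ENSOCUT00000003616 stood at -4.51 and -4.85 early and was not well above background on either late array, at least 1.64-fold lower, with an adjusted p of 0.100. It was at background in both ES lines too.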
